A study of Mus musculus with 4 samples.

Results

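The acute phase and innate secretory proteins described here are the products of 8 genes, Saa1, Saa2, Saa3, Lcn2, Ltf, Lrg1, Cp and Chil1, chosen by symbol from the 32285 genes of each count matrix. Each symbol stood on 1 row of both matrices, so all 8 were measured. The material was mammary organoids grown from fat pads of virgin mice aged 8 to 9 weeks, with lymph nodes left out. Their cells were read by droplet-based single-cell RNA sequencing, which counts unique molecule identifiers (UMIs) at the 3′ end of transcripts. The 4 cultures were collagen (COL1), a stiff condition (STIFF), Matrigel (MATR), which is a basement membrane extract, and a soft condition (SOFT). COL1 and STIFF cells carried different hashtag antibodies (TotalSeq-A, surface antibodies with a readable tag) and shared 1 channel of the chip, and MATR and SOFT cells shared the other. The materials of STIFF and SOFT, the strain and the time in culture are not given in the sources used here. Each condition was 1 culture, so no difference could be tested. Intervals are at 95% and describe counting error alone; the spread between cells of a culture is not in them.

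Acute phase proteins are secreted in large amounts when tissue is injured or infected, and in the liver their genes answer to interleukin 6 through STAT3 and C/EBP factors and to interleukin 1 and tumour necrosis factor through NF-kB. Several are also made by epithelia that face the outside, the mammary gland among them, where they add to the defence proteins of milk. Serum amyloid A proteins (Saa1, Saa2, Saa3) bind lipid. Lipocalin-2 (Lcn2) binds bacterial siderophores, lactoferrin (Ltf) binds iron in milk and ceruloplasmin (Cp) is a copper protein that oxidises iron. The leucine-rich glycoprotein Lrg1 is a secreted acute phase protein, and Chil1 is a chitinase-like lectin without chitinase activity.

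The 250 bases before the RefSeq start of each gene were read on build GRCm38.p6 and searched on both strands for 3 motifs, each given with N for any base. The C/EBP motif was TTGC, 2 N and AA, the NF-kB motif was GGG, 5 N and CC, and the STAT motif was TTC, 3 N and GAA. The windows of Saa2, Lrg1 and Lcn2 are shown because Saa2 and Lrg1 were past 1.5-fold within the main expressing class and Lcn2 had the highest level. Capitals mark a C/EBP or an NF-kB match.
Saa2: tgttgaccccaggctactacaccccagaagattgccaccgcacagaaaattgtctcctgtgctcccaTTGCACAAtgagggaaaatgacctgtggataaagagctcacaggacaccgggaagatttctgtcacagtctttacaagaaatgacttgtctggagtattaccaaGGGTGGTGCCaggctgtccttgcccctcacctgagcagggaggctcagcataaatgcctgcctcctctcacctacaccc
Lrg1: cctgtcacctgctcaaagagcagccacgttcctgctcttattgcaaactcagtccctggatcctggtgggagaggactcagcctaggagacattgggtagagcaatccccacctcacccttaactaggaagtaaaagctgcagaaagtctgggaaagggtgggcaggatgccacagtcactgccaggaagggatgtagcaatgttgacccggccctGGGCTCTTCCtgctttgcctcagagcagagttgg
Lcn2: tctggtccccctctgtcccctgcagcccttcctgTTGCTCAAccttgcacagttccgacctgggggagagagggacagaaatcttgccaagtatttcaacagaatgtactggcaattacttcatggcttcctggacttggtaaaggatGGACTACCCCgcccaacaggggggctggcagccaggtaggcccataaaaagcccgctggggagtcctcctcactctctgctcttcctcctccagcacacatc
These windows lie at chr7:46751583-46751832 (plus strand), chr17:56121947-56122196 (minus strand) and chr2:32387740-32387989 (minus strand). Saa2 held a C/EBP match 183 bases and an NF-kB match 79 bases before the start, and Saa1 held the same motifs 182 and 78 bases before its own. The aligned windows of Saa1 and Saa2 were 94.8% identical, with 238 identical bases, while Saa3 shared 52.2% with Saa1 and 52.4% with Saa2. Lcn2 had both motifs, 216 and 102 bases before the start, and Lrg1 had an NF-kB match alone, 34 bases before it. Saa3 held 1 C/EBP match, 99 bases before its start on the other strand, and no match to the NF-kB motif. Ltf and the second listed start of Cp had both motifs, and Chil1 had 2 NF-kB matches. No member window held the STAT motif. Among all 32851 RefSeq windows, 9.56% held the C/EBP motif, 45.8% the NF-kB motif and 7.02% the STAT motif, so the NF-kB letters in particular are common. A match is a run of letters and not a bound site, and a missing match says only that the letters are not in this window. The starts used for Saa1 and Saa3 and both of those for Cp lie inside the annotated extent of those genes, and their windows are not printed.

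There were 10615 barcodes with 133608252 UMIs for COL1 and STIFF, and 8767 with 131036333 for MATR and SOFT. After the cell filter, 1563 COL1 and 2451 STIFF cells and 2333 MATR and 1941 SOFT cells had a single tag. Which tag marked which culture was taken from the matrix names, and with the tags exchanged each difference within a pool would turn round. The pools shared 22 barcodes. Of hormone receptor-negative (HR-negative) luminal-like barcodes, 78.9% in the first pool and 71.1% in the second had no tag, against 29.6% and 29.997% of receptor-positive (HR-positive) ones. Cells were clustered without the 8 genes, and clusters were named from marker lists that hold none of them. HR-negative luminal-like cells (cluster 3) had 7 markers above the naming threshold, among them Kit, Elf5 and Csn3. The basal-like, HR-positive luminal-like, fibroblast-like and macrophage-like classes likewise carried their own lists, and the fibroblast-like class also carried pericyte markers. Neutrophil markers were the second list of the macrophage-like class. The basal-like cluster had a median doublet score of 0.0312. At a finer clustering (resolution 1.0) basal-like cells came as clusters of 497 and 202 cells. The smaller had a median doublet score of 0.209 and HR-negative markers as its second list. Clusters 2, 8 and 9 carried the markers of more than 1 class and stayed unnamed.

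HR-negative luminal-like cells, the secretory progenitor side of the luminal layer, held the highest level of 7 of the 8 genes among 5 classes compared. This held in each of the 4 conditions, and Saa3 was the exception. Levels are a gene's UMIs divided by all UMIs summed over the cells of a class, as counts per 1e+06 (CPM). Each molecule is counted once at its 3′ end, so levels of different genes are set side by side without a length correction. The HR-negative class had 183 cells in COL1 and 192 in STIFF, and 317 in MATR and 223 in SOFT, with median depths of 14854, 27796, 24379 and 27960 UMIs. Together the 8 genes made up 3.94% of its UMIs in COL1 and 3.84% in STIFF, and 3.15% in MATR and 3.39% in SOFT. In basal-like cells this share was 1.03%, 0.925%, 0.813% and 0.633% in the same order of conditions, and in HR-positive cells it was 0.139%, 0.118%, 0.0638% and 0.185%.

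Among the iron-linked members, Lcn2 stood far above the rest. In HR-negative cells it reached 22737 CPM in COL1 and 21648 in STIFF, and 18935 in MATR and 20167 in SOFT. Every HR-negative cell of the 4 conditions had at least 1 Lcn2 UMI. Ltf was at 727 CPM in COL1 and 613 in STIFF, and 1086 in MATR and 779 in SOFT, and MATR was the highest. Cp was at 611, 697, 775 and 695 CPM in the same order, lowest in COL1. Of the serum amyloid genes, Saa1 was at 4683 CPM in COL1 and 4797 in STIFF, and 3081 in MATR and 4291 in SOFT. Saa2 was at 1612, 1646, 911 and 1348 CPM. MATR was the lowest of the 4 for both. Saa1 and Saa2 are near-identical copies, and how reads that match both were counted is not given in the sources used here, so the split between them is uncertain. Saa3 was low in this class, at 65.8, 90.04, 61.6 and 46.4 CPM. Chil1 had the second highest level of the group, 8322 CPM in COL1 and 8079.9 in STIFF, and 5839.5 in MATR and 5981 in SOFT. Both values of the COL1 and STIFF pool lay above both of the MATR and SOFT pool. Lrg1 was at 685 CPM in COL1 and 841 in STIFF, and 823 in MATR and 546 in SOFT.

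**Figure D1:**
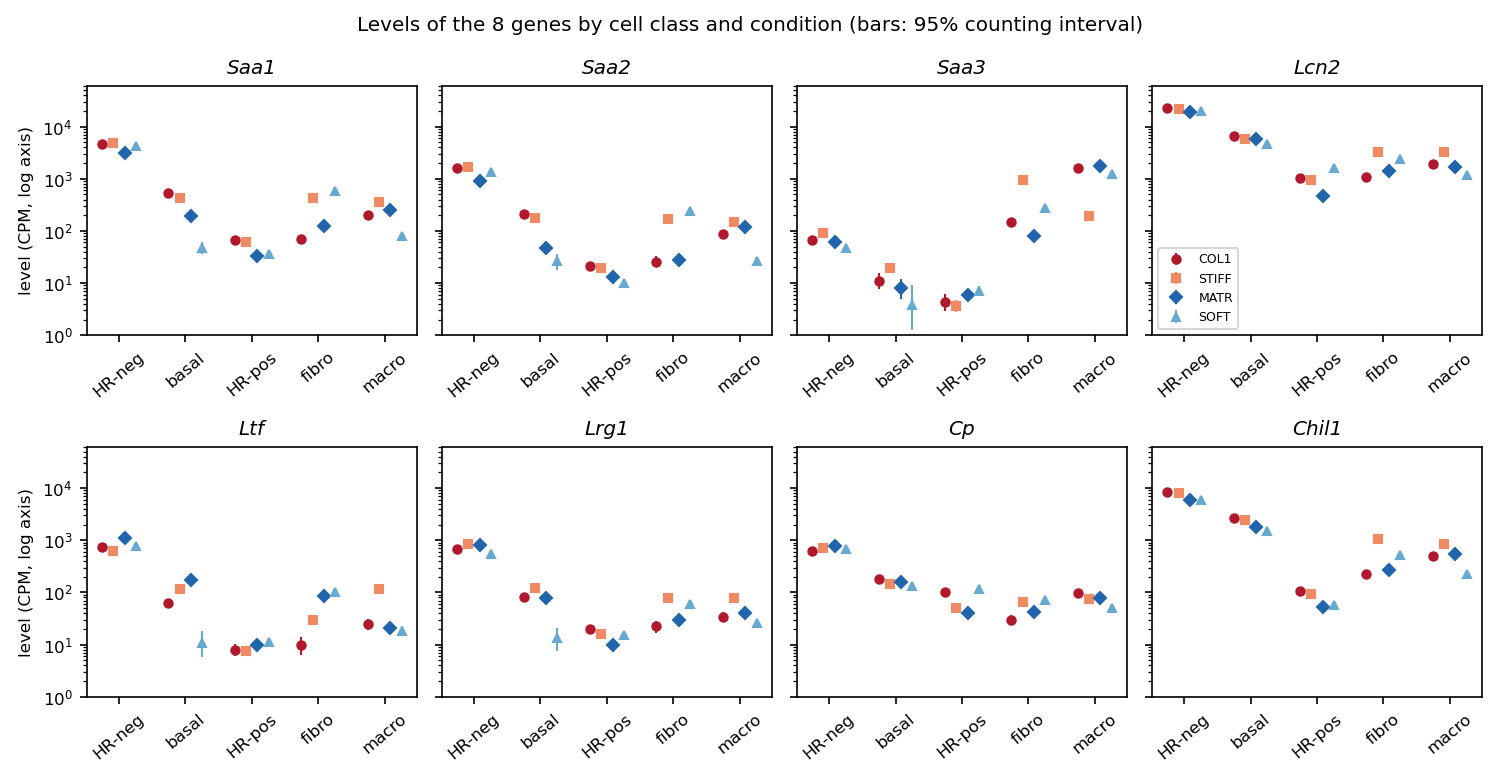
Level of each of the 8 genes (CPM, log axis) in 5 cell classes, with the 4 conditions side by side and bars for the 95% counting interval. Saa3 peaks in macrophage-like or fibroblast-like cells, and the other 7 genes peak in HR-negative luminal-like cells in every condition.

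The next highest class was always well below. For Saa1 the HR-negative level was 8.80 times that of the second class in COL1, 11.05 times in STIFF, 12.3 times in MATR and 7.49 times in SOFT. For Lrg1 the quotient was 8.55, 7.02, 10.5 and 9.14. Lower quotients were found for Lcn2, at 3.43, 3.72, 3.33 and 4.42, for Chil1, at 3.17, 3.33, 3.26 and 3.902, and for Cp, at 3.33, 4.90, 4.96 and 5.15. With tags ignored, so that untagged barcodes counted too, HR-negative barcodes had 22158 CPM of Lcn2 in the COL1 and STIFF pool and 19957 in the MATR and SOFT pool. In the same order Chil1 had 8046 and 5857 CPM, Saa1 4409 and 3734 and Saa2 1624 and 1303. Ltf had 672 and 867 CPM and Lrg1 893 and 709.

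Within the HR-negative class the genes differed in how evenly cells carried them. Chil1 was detected in 99.5% of COL1, 100% of STIFF, 99.4% of MATR and 99.1% of SOFT cells. Saa1 was detected in 91.3%, 97.9%, 86.4% and 92.8% of cells and Saa2 in 77.0%, 86.5%, 66.9% and 78.0%, with MATR lowest for both. Depth differed between conditions, so each cell was also thinned to 2000 UMIs, which left out shallower cells and kept 181, 192, 315 and 223 HR-negative cells. Saa1 was then detected in 78.5% of COL1, 84.4% of STIFF, 69.2% of MATR and 73.1% of SOFT cells, and Saa2 in 54.7%, 68.8%, 40% and 50.7%. HR-positive cells, with median depths of 10362, 12275.5, 12764 and 12971 UMIs, had an Saa1 UMI in 44.0% of COL1, 48.8% of STIFF, 34.2% of MATR and 34.0% of SOFT cells. After thinning, with 526, 1078, 1237 and 1016 cells kept, these shares were 11.2%, 12.2%, 6.31% and 6.79%. Ltf was in 70.5%, 81.8%, 78.2% and 84.3% of HR-negative cells, and in 43.1%, 38.0%, 46.0% and 48.4% after thinning. After the same thinning Lrg1 was detected in 60.2% of COL1 and 67.2% of STIFF cells and in 68.3% of MATR and 57.8% of SOFT cells, and Cp in 59.7%, 72.4%, 72.1% and 63.2%. For both, the shares of STIFF and MATR lay above those of COL1 and SOFT. Saa3 was in 6.08%, 6.25%, 6.35% and 7.17% of thinned cells. Counts of Saa2 and Ltf were concentrated in few cells. The 10% of HR-negative cells with the most UMIs of a gene held 60.8% of Saa2 UMIs in COL1 and 42.8% in STIFF, and 57.3% in MATR and 52.5% in SOFT. The like share for Ltf was 61.3%, 53.5%, 56.7% and 53.2%, while for Lcn2 it was 28.3%, 24.0%, 24.3% and 26.8%. The median HR-negative cell had 2706 CPM of Saa1 in COL1 and 3903 in STIFF, and 1525 in MATR and 2232 in SOFT, below the summed level in each condition.

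Across HR-negative cells of 1 condition, Saa1 and Saa2 varied together, with Spearman correlations of 0.815 to 0.913 over the 4 conditions. Saa1 with Chil1 gave 0.519 to 0.665, Lcn2 with Chil1 0.432 to 0.645 and Saa1 with Lcn2 0.377 to 0.568. Lrg1 went with Saa1 at 0.305 to 0.598 and with Chil1 at 0.352 to 0.581. Cp, Ltf and Saa3 had weaker correlations with Chil1, at -0.0863 to 0.197 for Cp, -0.0877 to 0.206 for Ltf and 0.171 to 0.265 for Saa3. Cp with Ltf was at 0.0774 to 0.440. These are descriptions over 183 to 317 cells that share a library, and the correlation of a member with the UMIs per cell ran from -0.150 to 0.328.

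COL1 over STIFF, both on 1 channel, compares collagen with the stiff condition. In HR-negative cells 0 of the 8 genes were at least 1.5-fold apart, beside 7.56% of 9789 genes with at least 5 CPM in 1 condition. Saa1 was at 0.976-fold, Saa2 at 0.979 and Lcn2 at 1.05. The folds farthest from 1 were 0.731 for Saa3 and 0.815 for Lrg1, and Ltf was at 1.19. The median log2 ratio of the members was -0.03, and that of all genes was -0.03.

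MATR over SOFT, on the other channel, had 1 of 8 genes past 1.5-fold, with 5.95% of 9701 genes past it. Lrg1 was 1.51-fold higher in MATR (1.45 to 1.57). Saa2 was at 0.675-fold (0.655 to 0.696) and Saa1 at 0.718. A relative tag rule, in which a tag is read against its own background level and more HR-negative cells are assigned, put Saa1 at 0.571-fold, Saa2 at 0.477-fold and Lrg1 at 1.30-fold. Lrg1 thus left the threshold and both serum amyloid genes passed it. Lcn2 was at 0.939-fold, Chil1 at 0.976, Cp at 1.12, Saa3 at 1.33 and Ltf at 1.39. The members' median log2 ratio was 0.06, and that of all genes -0.02.

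COL1 over MATR compares collagen with Matrigel, and its conditions cannot be told apart from the 2 channels. Saa1 was 1.52-fold higher in COL1 (1.49 to 1.55) and Saa2 1.77-fold (1.71 to 1.83). These 2 of 8 genes stand beside 7.28% of all genes tested. Chil1 was at 1.43-fold (1.40 to 1.45) and Lcn2 at 1.20. Lrg1 at 0.832 and Cp at 0.789 were below 1, and Ltf was at 0.670 (0.641 to 0.700). The members' median log2 ratio was 0.17, and that of all genes -0.02. With each cell weighted equally Saa1 was at 1.39-fold and Saa2 at 1.52.

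STIFF over SOFT compares the stiff with the soft condition, again across channels that cannot be told apart from the conditions. Saa3 was 1.94-fold higher in STIFF (1.69 to 2.24) and Lrg1 1.54-fold (1.48 to 1.61), 2 of 8 genes beside 9.7% of 9821. Chil1 was at 1.35-fold (1.33 to 1.37), Saa2 at 1.22, Saa1 at 1.12 and Ltf at 0.786. The members' median log2 ratio was 0.22, and that of all genes -0.01. Under the relative tag rule Saa3 was at 1.06-fold and Lrg1 at 1.44, and neither was past the threshold. Saa3 rests on few cells here, since 15 STIFF and 7 SOFT cells of this class had 10 or more Saa3 UMIs. The 4 comparisons share cultures in pairs and are not independent of each other.

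**Figure D2:**
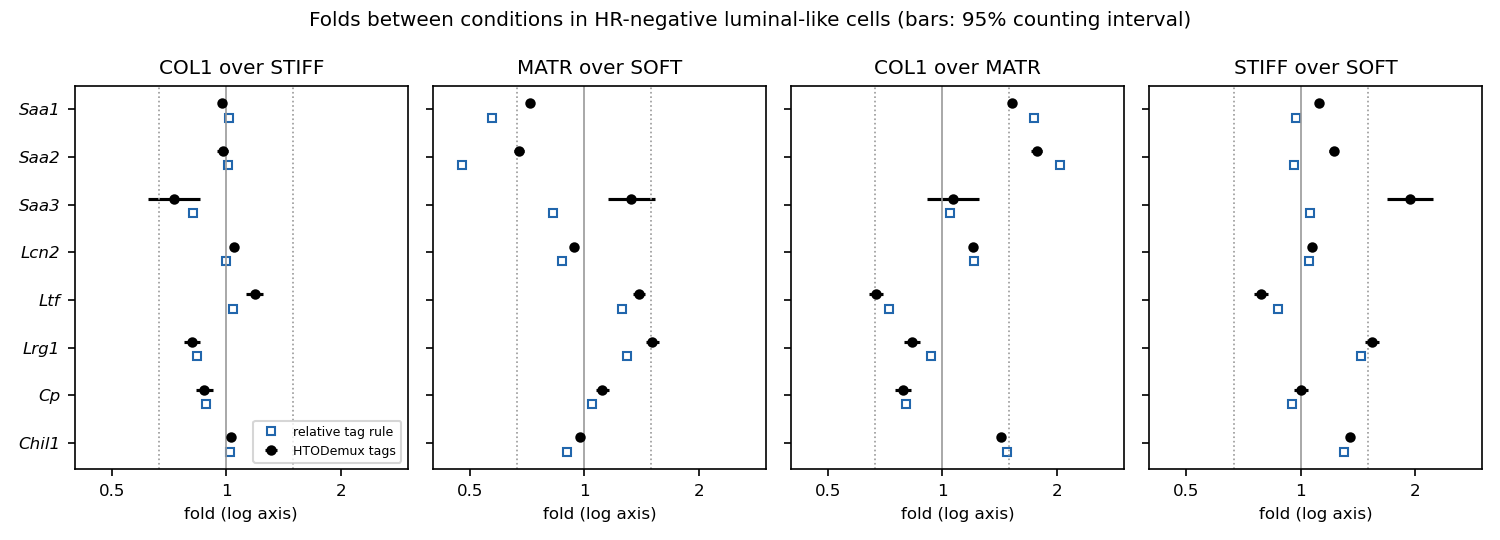
Fold between conditions in HR-negative luminal-like cells for each of the 8 genes (log axis) in the 4 comparisons, with dotted lines at 1.5-fold. Filled points are tags called by HTODemux with 95% counting intervals, and open squares are tags called by the relative rule, under which Saa1 and Saa2 move further below 1 in MATR over SOFT.

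Over all tagged cells a level also follows the share of each class. Saa3 was 1.91-fold higher in COL1 than in STIFF (1.84 to 1.98), the only member past 1.5-fold there, beside 4.66% of genes. In MATR over SOFT Lrg1 was at 1.60-fold (1.55 to 1.65) as the single member, beside 6.72%. Under the relative and margin tag rules it was at 1.48-fold and 1.45-fold, and Saa2 was the single member past the threshold, at 0.593-fold and 0.612-fold. In COL1 over MATR Saa3 was at 1.61-fold (1.54 to 1.67), and Ltf at 0.520-fold (0.502 to 0.539), the members past the threshold, beside 8.83%. In STIFF over SOFT Lrg1 was at 1.64-fold (1.59 to 1.70) and Saa3 at 0.576-fold (0.556 to 0.597), beside 6.44%. Saa3 thus lay below 1 over all cells and above 1 in HR-negative cells for the same pair. Lcn2 ranged only from 6805 CPM in MATR to 8006 in STIFF over all tagged cells. Under the relative and margin tag rules these last folds were 1.48 and 1.40 for Lrg1 and 0.937 and 0.918 for Saa3, and Saa3 in COL1 over STIFF was at 1.44 and 1.42, all within 1.5-fold. With each cell weighted equally the Saa3 folds were 1.44 for COL1 over STIFF, 1.26 for COL1 over MATR and 0.814 for STIFF over SOFT.

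Counts outside the HR-negative class were read beside 7 of its own markers, Kit, Elf5, Csn3, Cd14, Wfdc18, Trf and Mfge8, because free RNA and mixed droplets bring all transcripts of a source in 1 ratio. In basal-like cells the median marker stood at 15.4% of its HR-negative level in COL1 and 14.1% in STIFF, and 12.1% in MATR and 6.75% in SOFT. Lcn2 stood at 29.2%, 26.9%, 30.01% and 22.6%, and Chil1 at 31.5%, 30.04%, 30.7% and 25.6%. Cp was at 30.01%, 20.4%, 20.2% and 19.4%. These 3 genes lay above at least 6 of the 7 markers in basal-like cells of all 4 conditions. Saa1, at 11.4%, 8.97%, 6.28% and 1.11%, and Saa2, at 13.1%, 10.6%, 5.09% and 1.94%, lay below the marker median in every condition. In CPM, basal-like cells had 6635 of Lcn2 in COL1 and 5821 in STIFF, and 5682 in MATR and 4565 in SOFT, and 2624, 2427, 1792 and 1533 of Chil1.

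**Figure D3:**
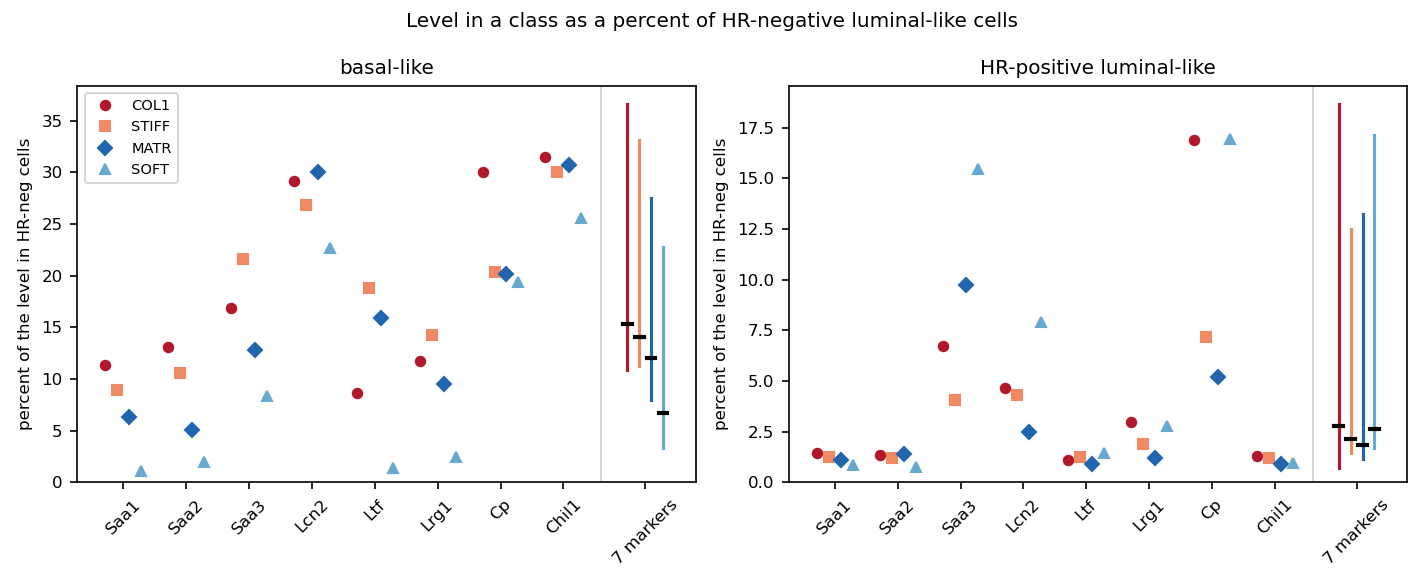
Level of each gene in basal-like (left) and HR-positive luminal-like (right) cells as a percent of its level in HR-negative cells of the same condition. Vertical lines at the right of each panel span 7 HR-negative markers and black ticks are their medians, and in basal-like cells Lcn2, Cp and Chil1 lie above the ticks of all 4 conditions.

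In basal-like cells (231 in COL1 and 197 in STIFF, and 182 in MATR and 77 in SOFT) several members were far lower in SOFT than in the other conditions. For MATR over SOFT, Saa1 was at 4.05-fold (3.11 to 5.35), Ltf at 15.99-fold (9.45 to 29.5) and Lrg1 at 5.97-fold. In all 5 members were past 1.5-fold, each higher in MATR, beside 19.0% of genes. For STIFF over SOFT, Saa1 was at 9.0-fold (6.99 to 11.8), Saa2 at 6.65-fold (4.71 to 9.67) and Ltf at 10.7-fold (6.30 to 19.7). Here 6 members were past 1.5-fold, each higher in STIFF, beside 19.7%. Saa3 was counted in both comparisons, at 2.05-fold and 5.04-fold. A single basal-like cell held 50% of Saa3 UMIs in MATR and 56.8% in STIFF, and no SOFT cell had more than 1. The summed HR-negative markers moved in the same direction as these folds in basal-like cells. They were at 3154 CPM in COL1 and 3719 in STIFF, and 2782 in MATR and 1229 in SOFT. Among them Csn3 was at 973, 1185, 636 and 175 CPM and Wfdc18 at 553, 717, 630 and 162. Kit was at 21.9, 18.9, 17.1 and 3.85 CPM and Elf5 at 35.0, 46.3, 40.1 and 13.9. The part of these markers in the folds was not tested. Without the cells of highest doublet score Saa1 was at 1.41-fold in MATR over SOFT, no longer past 1.5-fold, and at 4.25-fold in STIFF over SOFT. With the lowest class level taken off as background these folds were 13.96 and 32.2. Lcn2 and Chil1 differed less, at 1.24-fold and 1.17-fold in MATR over SOFT and 1.28-fold and 1.58-fold in STIFF over SOFT. For COL1 over STIFF 2 members were past 1.5-fold beside 13.1% of genes, Ltf at 0.545-fold and Saa3 at 0.571-fold, and Saa1 was at 1.24-fold. That Saa3 fold includes the STIFF cell with 56.8% of the UMIs. For COL1 over MATR 3 were, beside 12.2%, Saa1 at 2.75-fold (2.50 to 3.03), Saa2 at 4.57-fold (3.80 to 5.52) and Ltf at 0.364-fold. The median log2 ratio of the members in basal-like cells was 0.15 for COL1 over STIFF, 0.50 for MATR over SOFT, 0.23 for COL1 over MATR and 1.72 for STIFF over SOFT, and that of all genes lay between -0.02 and 0.01.

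HR-positive cells, which carry the oestrogen and progesterone receptors, had Lcn2 at 1055 CPM in COL1 and 928 in STIFF, and 473 in MATR and 1596.5 in SOFT. Cp was at 103, 49.8, 40.4 and 118 CPM. Both genes were high in COL1 and SOFT and lowest in MATR. Against HR-negative cells Cp stood at 16.9%, 7.14%, 5.21% and 16.9% and Lcn2 at 4.64%, 4.29%, 2.50% and 7.92%, beside a marker median of 2.79%, 2.11%, 1.84% and 2.62%. Lcn2 lay above 5 of the 7 markers in each condition. Saa1 (1.46%, 1.26%, 1.08% and 0.846%) and Chil1 (1.30%, 1.18%, 0.901% and 0.945%) lay below that median throughout. For COL1 over STIFF Cp was at 2.07-fold (1.87 to 2.30), the only member past 1.5-fold of 7 measured, beside 6.56% of genes, and Lcn2 was at 1.14 (1.10 to 1.17). For MATR over SOFT Cp was at 0.343-fold (0.314 to 0.375) and Lcn2 at 0.296-fold (0.289 to 0.304), 2 of the 3 members past 1.5-fold beside 6.23%. For STIFF over SOFT Cp was at 0.423-fold (0.388 to 0.461) and Lcn2 at 0.582-fold (0.570 to 0.594). In all 6 members were past 1.5-fold beside 9.18%, 3 lower, with Saa3 at 0.507-fold, and 3 higher, Saa1 at 1.67-fold, Saa2 at 1.94-fold and Chil1 at 1.68-fold. Saa3 was at 3.64 CPM in STIFF, below the 5 CPM minimum, so it counted as measured through SOFT alone. No HR-positive cell of STIFF or SOFT had 10 or more Saa3 UMIs. For COL1 over MATR 6 members were past it, each higher in COL1, beside 7.5%, with Lcn2 at 2.23-fold (2.16 to 2.30). Trimmed mean scaling would take 0.13 (log2) from each ratio of that last comparison. In HR-positive cells the HR-negative markers summed to 902 CPM in COL1 and 711 in STIFF, and 633 in MATR and 751 in SOFT. Csn3, 1 of them, was at 208, 183, 109 and 106 CPM. It was higher in STIFF than in SOFT, which the sum was not. The part of HR-negative RNA in the folds of HR-positive cells was not tested.

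The HR-positive class was made of clusters 0, 1 and 6 in different shares. Cluster 1, led by Reg3b and Calcb, held 41.5% of HR-positive cells in COL1 and 29.2% in STIFF, and 16.2% in MATR and 53.1% in SOFT. It carried the most Lcn2 and Cp of the 3 clusters in every condition. Lcn2 in cluster 1 was at 1624 CPM in COL1 and 2159 in STIFF, and 1014 in MATR and 2172 in SOFT, against 464, 357, 352 and 572 CPM in cluster 0. Cp in cluster 1 was at 151, 122, 88.4 and 148 CPM, against 38.9, 16.4, 25.0 and 41.5 in cluster 0. Within clusters 0, 1 and 6 the MATR over SOFT fold of Lcn2 was 0.615, 0.467 and 0.325 and that of Cp 0.601, 0.595 and 0.432, so both stayed below 1 in each. Within the same clusters the STIFF over SOFT fold of Lcn2 was 0.625, 0.994 and 0.460 and that of Cp 0.394, 0.821 and 0.241. In cluster 1, which held the most SOFT cells, both were within 1.5-fold. The COL1 over STIFF fold in clusters 0, 1 and 6 was 2.37, 1.24 and 4.66 for Cp and 1.30, 0.752 and 1.87 for Lcn2, so Cp was within 1.5-fold in cluster 1. Cluster 6 had 16 STIFF cells, with 4 Cp UMIs in all.

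**Figure D4:**
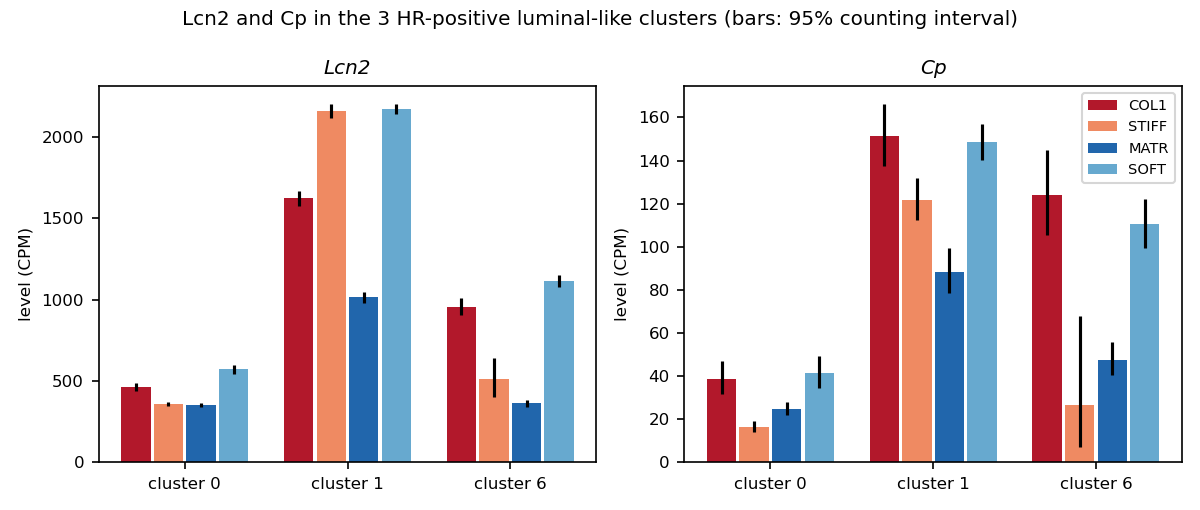
Level of Lcn2 and Cp (CPM) in the 3 clusters of HR-positive luminal-like cells by condition, with bars for the 95% counting interval. Cluster 1 is the highest for both genes in all 4 conditions, and MATR is its lowest condition.

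Saa3 was a gene of macrophage-like and fibroblast-like cells. In macrophage-like cells it was at 1615 CPM in COL1 and 196 in STIFF, and 1729 in MATR and 1240.2 in SOFT. STIFF was the low one. In fibroblast-like cells Saa3 was at 151 CPM in COL1 and 966 in STIFF, and 78.5 in MATR and 279 in SOFT, and STIFF was the highest. Saa3 therefore peaked in fibroblast-like cells in STIFF and in macrophage-like cells in the other conditions. It stood at 127% to 1073% of its HR-negative level in fibroblast-like cells and at 218% to 2807% in macrophage-like cells, beside marker medians of 4.88% to 11.1% and of 5.86% to 13.3%.

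For COL1 over STIFF the Saa3 fold was 8.22 (7.69 to 8.80) in macrophage-like cells and 0.157 (0.141 to 0.174) in fibroblast-like cells. For MATR over SOFT it was 1.39 (1.34 to 1.45) and 0.281 (0.234 to 0.336) in the same order of classes. For STIFF over SOFT it was 0.158 (0.148 to 0.169) and 3.46 (3.17 to 3.78). In macrophage-like cells COL1 over MATR gave 0.934 (0.895 to 0.975). The share of genes past 1.5-fold was large in these classes, 20.2%, 20.1%, 17.9% and 26.3% in macrophage-like cells for COL1 over STIFF, MATR over SOFT, COL1 over MATR and STIFF over SOFT, and 18.5%, 20.2%, 18.7% and 17.3% in fibroblast-like cells.

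Few cells carried most Saa3 counts. Of macrophage-like cells, 39 of 149 in COL1 and 20 of 251 in STIFF, and 51 of 157 in MATR and 78 of 258 in SOFT had 10 or more Saa3 UMIs, which is 26.2%, 7.97%, 32.5% and 30.2%. Of fibroblast-like cells these were 5 of 164 in COL1, 24 of 148 in STIFF, 5 of 105 in MATR and 12 of 82 in SOFT, or 3.05%, 16.2%, 4.76% and 14.6%. In both classes STIFF was at the same end of the 4 conditions in this share and in the summed level. A single cell held 22.5%, 17.4%, 8.11% and 7.15% of Saa3 UMIs in macrophage-like cells and 48.5%, 23.1%, 24.8% and 40.8% in fibroblast-like cells. Without the highest cell of each condition, a setting chosen after seeing the data, COL1 over STIFF was 7.74-fold in macrophage-like and 0.106-fold in fibroblast-like cells, and COL1 over MATR in fibroblast-like cells was 1.32-fold, against 1.93-fold with it. With each cell weighted equally that last fold was 1.09, and COL1 over STIFF in fibroblast-like cells was 0.0518. Thinned to 2000 UMIs, 31.5% of COL1, 11.6% of STIFF, 42.8% of MATR and 37.2% of SOFT macrophage-like cells had an Saa3 UMI, against 55.0%, 25.1%, 63.1% and 57.0% unthinned at median depths of 13191, 18087, 13705 and 16371. HR-positive cells had one in 1.14%, 1.11%, 1.37% and 2.07% after thinning. With tags ignored, Saa3 in macrophage-like barcodes was at 554 CPM in the COL1 and STIFF pool and 1296.5 in the MATR and SOFT pool, and in fibroblast-like barcodes at 729 and 215.

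**Figure D5:**
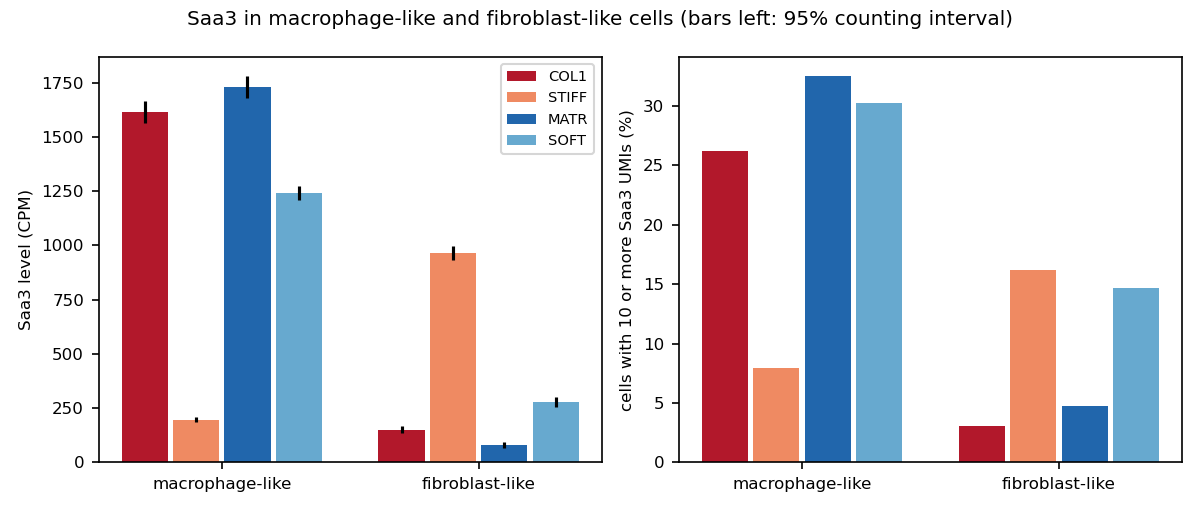
Saa3 level (CPM, left, with 95% counting intervals) and percent of cells with 10 or more Saa3 UMIs (right) in macrophage-like and fibroblast-like cells by condition. STIFF is the lowest condition in macrophage-like cells and the highest in fibroblast-like cells in both panels.

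Markers of other classes were counted in these cells as well. Summed macrophage markers in macrophage-like cells were at 43105 CPM in COL1 and 34899 in STIFF, and 40925 in MATR and 49339 in SOFT, so STIFF was lowest there too, by less than Saa3. In fibroblast-like cells they were at 813, 399, 212 and 1753 CPM. Saa3 there had the same order over SOFT, COL1 and MATR, and departed from it in STIFF. The part of macrophage RNA in the Saa3 of fibroblast-like cells was not tested. HR-positive markers in macrophage-like cells were at 1041, 2355, 1145 and 740.5 CPM, highest in STIFF. Neutrophils also make several of these proteins. Their list summed to 236, 70.9, 95.2 and 328 CPM in macrophage-like cells, with S100a9, Retnlg, Ly6g and Ngp at 0 in all 4 conditions.

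The other genes were read in fibroblast-like and macrophage-like cells beside HR-negative markers. In fibroblast-like cells Lcn2 was at 1076 CPM in COL1 and 3213 in STIFF, and 1416 in MATR and 2429 in SOFT, and Saa1 at 69.9, 434, 123 and 573. HR-negative markers summed to 1674, 3104, 1666 and 2128 CPM there, also lower in COL1 than in STIFF and in MATR than in SOFT. For COL1 over STIFF all 8 members were past 1.5-fold lower in fibroblast-like cells, with Saa1 at 0.161-fold and Lcn2 at 0.335-fold, and for MATR over SOFT 7 were, with Saa1 at 0.214-fold and Lcn2 at 0.583-fold. For COL1 over MATR and for STIFF over SOFT 3 members each were past it. In macrophage-like cells Lcn2 was at 1883 CPM in COL1 and 3241 in STIFF, and 1660.2 in MATR and 1201 in SOFT, and the median HR-negative marker stood at 7.85%, 13.3%, 7.80% and 5.86% of its HR-negative level. Lcn2 and the marker median were both highest in STIFF and lowest in SOFT. In macrophage-like cells 7 members were past 1.5-fold in COL1 over STIFF, Saa3 higher and 6 lower, and 5 in MATR over SOFT. COL1 over MATR had 0, and STIFF over SOFT had all 8, of which Saa3 alone was lower. Trimmed mean scaling would take 0.23 (log2) from the ratios of STIFF over SOFT in this class. The part of HR-negative RNA in these levels was not tested.

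The unnamed clusters 2 and 8 also carried the genes. Lcn2 in cluster 2, which had markers of both luminal classes and a median doublet score of 0.126, was at 10053 CPM in COL1 and 11707 in STIFF, and 10523 in MATR and 11363 in SOFT. In cluster 8, with basal and HR-negative markers and cell cycle genes, it was at 13516, 15097, 13745 and 15363 CPM. Saa1 was far lower in cluster 8, at 323, 497, 554 and 367 CPM, than in cluster 2, at 1093, 1560.1, 999.8 and 1508.

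Genes whose level was most like that of a member were sought among 4550 genes over 20 profiles of class and condition, by Pearson correlation of log2(CPM + 10). The 20 profiles share 4 cultures and 2 channels. Saa1 was closest to Csn3 (0.975), a casein, then Atp6v1b1 (0.961) and Kit (0.960). Saa2 was closest to Csn3 (0.963), Muc15 (0.949) and Atp6v1b1 (0.947), and Lrg1 to Atp6v1b1 (0.989), Elf5 (0.988) and Muc15 (0.985). For Ltf these were Elf5 (0.9502), Wfdc18 (0.949) and Cgnl1 (0.947). Lcn2 and Chil1, the members read most in basal-like cells, shared Pdlim3, at 0.967 and 0.958. Lcn2 also had Mgst1 (0.972) and Sertad4 (0.970), and Chil1 Igfbp5 (0.971) and Sox10 (0.955). Cp was closest to Clmn (0.989), Met (0.968) and Noxo1 (0.963). In HR-positive cells Clmn had 13.4 CPM in COL1 and 6.56 in STIFF, and 7.55 in MATR and 15.5 in SOFT, an order close to that of Cp. These values are among the 20 profiles by which Clmn was picked, so this likeness is not a further observation. Saa3 was closest to Rap1b (0.920), Tnfaip2 (0.916) and Snx18 (0.912). With a pseudocount of 1 CPM, 14 of these 24 genes stayed among the 3 closest of the same member.

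Other genes of the same pathways were counted in HR-negative cells, where the share of all genes past 1.5-fold is that given above for each comparison. Of 20 further acute phase genes 6 were measured, and Crp, Apcs, Fga and Fgb had no UMI there. Haptoglobin (Hp), which binds free haemoglobin, was at 1960.5 CPM in COL1 and 1708 in STIFF, and 1248 in MATR and 1852 in SOFT. MATR was lowest for it as for Saa1 and Saa2, and COL1 over MATR was 1.57-fold (1.52 to 1.62). Lbp, which carries lipopolysaccharide, was at 727, 637, 728 and 717 CPM, and complement C3 at 146, 174, 171 and 157. Of the 6, 0 were higher and 0 lower in COL1 over STIFF, and 1 and 1 in MATR over SOFT. For COL1 over MATR these counts were 2 and 1, and for STIFF over SOFT 1 and 0. The list's median log2 ratios in the 4 comparisons were -0.13, 0.07, -0.10 and 0.01. The metalloreductase gene Steap4 was the highest in MATR over SOFT at 2.26-fold and the lowest in COL1 over MATR at 0.620-fold, at no more than 20.9 CPM.

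Of 16 other innate secretory genes 8 were measured. The antiprotease gene Slpi was at 451 CPM in COL1 and 680 in STIFF, and 660 in MATR and 933 in SOFT, and Wfdc2 at 494, 611, 821 and 776. Both were lowest in COL1, where Saa1, Saa2 and Chil1 were not. Slpi was at 0.664-fold in COL1 over STIFF and Wfdc2 at 0.601-fold in COL1 over MATR. The counts higher and lower were 0 and 3 in COL1 over STIFF, and 1 and 1 in MATR over SOFT. For COL1 over MATR these counts were 1 and 2, and for STIFF over SOFT 1 and 0, with list medians of -0.26, -0.17, -0.11 and -0.02 in the order of comparisons above. Pigr, which carries immunoglobulin A across epithelia, was the highest in MATR over SOFT at 1.97-fold and in STIFF over SOFT at 1.95-fold, at 14.9, 25.5, 25.7 and 13.0 CPM.

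Of 16 genes of the interleukin 6, STAT3 and C/EBP pathway, 12 or 13 were measured in a comparison. Cebpb was the most abundant described, at 1885 CPM in COL1 and 1767 in STIFF, and 1623 in MATR and 2175 in SOFT. Il6 had no UMI in the class. In COL1 over MATR 2 genes were higher and 1 lower, with the STAT3 target Pim1 at 1.61-fold and Socs3 at 1.502-fold. In COL1 over STIFF 0 were higher and 1 lower, in MATR over SOFT 0 and 0, and in STIFF over SOFT 1 and 0. Their medians were -0.02, -0.30, 0.14 and -0.06 for COL1 over STIFF, MATR over SOFT, COL1 over MATR and STIFF over SOFT. Of 16 NF-kB pathway genes 14 were measured, and those past 1.5-fold were all higher, 0 in COL1 over STIFF, 1 in MATR over SOFT and 4 each in COL1 over MATR and STIFF over SOFT. Nfkbia, the inhibitor that NF-kB itself induces, was at 331 CPM in COL1 and 351 in STIFF, and 143 in MATR and 159 in SOFT. The COL1 and STIFF pool was the higher one for it, at 2.31-fold (2.13 to 2.51) for COL1 over MATR and 2.20-fold (2.05 to 2.37) for STIFF over SOFT. Both are comparisons across channels. Nfkbiz, at 77.7, 99.1, 51.0 and 49.9 CPM, was split the same way. The NF-kB list's medians were -0.12, -0.07, 0.05 and 0.15. Of 16 receptor genes 8 were measured, and 1 was past 1.5-fold in each of MATR over SOFT and STIFF over SOFT and 0 in the others. It was Tgfbr2, a receptor of transforming growth factor beta, at 54.2 CPM in COL1 and 59.7 in STIFF, and 56.2 in MATR and 33.6 in SOFT.

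Of 12 iron handling genes 11 or 12 were measured. Transferrin (Trf), itself a milk protein, was at 5476.5 CPM in COL1 and 7616.5 in STIFF, and 6404 in MATR and 4497 in SOFT, and Fth1, the ferritin heavy chain, at 4706, 4584, 5548 and 6905. Haem oxygenase Hmox1 was at 35.1, 28.7, 26.05 and 76.1 CPM, highest in SOFT, with 0.342-fold in MATR over SOFT and 0.377-fold in STIFF over SOFT. In STIFF over SOFT 3 iron genes were higher, Trf at 1.69-fold among them, and 2 lower, Hmox1 and Fth1. In COL1 over STIFF 0 were higher and 3 lower, and in MATR over SOFT and COL1 over MATR 0 were higher and 1 lower in each.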

How the data were processed

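The authors deposited raw UMI counts per gene and barcode for each pool as count matrices with antibody tag counts; their gene counts had 0 differing entries between the 2 deposits of a pool, so each was read once. Cell Ranger 5.0.0 and Seurat 4.2.0 were used with the mm10 build, per the submitters' processing notes. The protocol in the labels names V2 chips and a V3 library kit. A further label gives only a stiff or a soft group for each pool. The 8 genes, the gene lists and the comparisons were chosen with earlier results of these data known.

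The cell filter asked for 1000 UMIs and 500 genes or more, and for mitochondrial UMIs of 15% or less, and kept 90.1% and 90.6% of the pools. Tags were called with HTODemux (Seurat 5.3.0, R 4.3.3, quantile 0.99). Barcodes with no tag, 54.9% and 42.7% of those kept, and with both tags (305 and 277) were left out of the comparisons. Tagged cells were clustered with Python 3.11.15, scanpy 1.11.5 and leidenalg 0.10.2 (2000 variable genes without the 8 members, 30 components, 15 neighbours, resolution 0.5). A cluster was named from a list with at least 3 markers at 20 CPM and 2-fold over other clusters. Doublets were weighed by leaving out the highest scrublet scores, as an alternative.

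Counts were summed per class and condition and divided by the total. A gene was measured with at least 5 CPM in 1 condition, and the classes compared had at least 50 cells. Single clusters could be smaller, such as cluster 8 in MATR with 45 cells and cluster 6 in STIFF with 16. Past 1.5-fold means a ratio of at least 1.5 or at most its inverse. Folds have exact conditional binomial intervals, levels Poisson intervals, all 95%. With 1 culture per condition no test was made. Log2 medians used a pseudocount of 10 CPM. The members are named in every class and condition, with the 3 most similar genes of each (at least 50 CPM in 1 profile) and, from each list, genes of highest level and of highest and lowest ratio. The fold and interval calculation alone was tested on simulated counts, drawn without spread between cells. Tag calling, clustering, doublets and free RNA were not simulated. Alternatives were the tag rules, cell filter, doublet scores, clustering, cell weighting, totals without the 8 genes, trimmed mean scaling (edgeR 4.0.16) and background subtraction.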

Additional observations from a re-analysis of the deposited data

Results flagged for a closer look

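Several folds between the same conditions lay past 1.5-fold in opposite directions in different classes, with a level relative to HR-negative cells above the marker median in the higher condition. These differences between classes were not tested, and the rule that selects them was set after seeing the data. Saa3 in COL1 over STIFF was at 8.22-fold in macrophage-like and 0.157-fold in fibroblast-like cells. In MATR over SOFT, Saa1 was at 3.14-fold in macrophage-like and 0.214-fold in fibroblast-like cells, Saa2 at 4.40-fold and 0.116-fold in the same classes, and Cp at 1.58-fold in macrophage-like and 0.343-fold in HR-positive luminal-like cells. Macrophage-like cells of MATR had 251 CPM of Saa1 and 118 of Saa2, against 3081 and 911 in HR-negative cells. The part of HR-negative RNA in these levels was not tested. In STIFF over SOFT, Saa3 was at 1.94-fold in HR-negative luminal-like and 3.46-fold in fibroblast-like but 0.158-fold in macrophage-like cells. For the same pair Lcn2 was at 2.70-fold in macrophage-like and 0.582-fold in HR-positive cells, and Ltf at 10.7-fold in basal-like, 6.25-fold in macrophage-like and 0.289-fold in fibroblast-like cells. Basal-like cells of SOFT had Ltf at 10.8 CPM over 77 cells, and these Ltf folds were not recomputed under the alternatives.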

How the results depend on the processing

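No paired analysis was possible because each condition was 1 culture. Under each alternative that recomputes it, 7 members had their highest level in HR-negative cells. In HR-negative and all tagged cells the counts of members past 1.5-fold moved as follows, and no other alternative run moved these counts. In HR-negative cells COL1 over STIFF had 0, and 1 with each pool clustered alone. MATR over SOFT had 1, and 2 under the relative and margin tag rules, at resolution 1.0, with each pool clustered alone and with cells weighted equally. COL1 over MATR had 2, and 1 with cells weighted equally and 3 without the highest doublet scores. STIFF over SOFT had 2, and 0 under both tag rules and 1 at resolution 1.0. Over all tagged cells COL1 over STIFF had 1, and 0 under both tag rules and with cells weighted equally. MATR over SOFT had 1, and 2 under the stricter cell filter, and under both tag rules the 1 was Saa2 in place of Lrg1. COL1 over MATR had 2, and 1 with cells weighted equally. STIFF over SOFT had 2, and 0 under both tag rules and 1 with cells weighted equally. The cause was not tested. In HR-negative cells Saa1 ranged from 0.571 to 0.738 in MATR over SOFT and from 1.39 to 1.74 in COL1 over MATR, and Saa3 from 1.02 to 2.31 in STIFF over SOFT. Among the 100 single folds put through the alternatives, none past the threshold turned its direction. Not among them were Saa3, Ltf and Lrg1 in basal-like cells and members other than Lcn2 and Cp in HR-positive cells. In fibroblast-like and macrophage-like cells Saa3 alone was recomputed. In basal-like cells Saa1 ranged from 1.41 to 13.96 and Saa2 from 1.02 to 2.09 in MATR over SOFT. Of 100 single folds, 73 moved by more than their counting interval under the margin rule, 70 with cells weighted equally, 68 under the relative rule, 34 without the highest doublet scores, 33 with trimmed mean scaling and 2 under the stricter filter. Of 68 recomputed, 42 moved at resolution 1.0 and 26 with each pool clustered alone, and 14 of 64 with background taken off. Taking the lowest class level off as background sets the folds of Cp and Lcn2 in HR-positive cells to 0 in MATR over SOFT and STIFF over SOFT, because HR-positive cells of MATR or STIFF are then that lowest class. Trimmed mean scaling takes 0.13 (log2) from ratios of all genes in HR-positive COL1 over MATR, and in macrophage-like cells -0.12 from COL1 over STIFF, 0.13 from MATR over SOFT and 0.23 from STIFF over SOFT. Depth limits Saa3 outside macrophage-like and fibroblast-like cells and SOFT basal-like cells, of which there were 77.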
